A study of Homo sapiens with 4 samples.

Results

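The interval described here is the histone gene cluster on 6p22, taken as the 2.4 Mb from 26.0 to 28.4 Mb of chromosome 6 on the hg19 build. Its members are the accessible regions found in it by ATAC-seq, which marks exposed DNA by the cuts of a transposase that carries adapters. They were chosen by position alone: the peaks of 4 deposited peak lists were merged where they shared at least 1 bp, and a merged region belonged to the interval if its midpoint lay there. This gave 391 of 373425 regions on chromosomes 1 to 22 and X. The cells were BCPAP, an established human thyroid cancer line. The groups were 2 libraries of cells given 5-azacytidine and 2 libraries of untreated cells. 5-Azacytidine is a cytidine analogue that is built into nucleic acids, traps DNA methyltransferases and lowers CpG methylation. The labels state neither a dose nor a duration, and they do not say whether replicates were grown as separate cultures. The p-values below therefore rest on spread between these libraries, shared over many regions in the fitted model, and this spread may be technical. The comparison asks where accessibility differed between treated and untreated cells. DNA methylation was not measured in these libraries.

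Replication-dependent histone genes encode the core histones H2A, H2B, H3 and H4, around which DNA is wound, and the linker histone H1. They are transcribed mainly in S phase, when new chromatin needs histones, and their transcripts end in a stem-loop in place of a poly(A) tail. The copies on 6p22 are the largest group of such genes in the human genome, and the locus forms part of a nuclear body that concentrates their transcription and RNA processing factors. In RefSeq's gene table, which is on GRCh38.p14 and was used for names and gene order only, a left run of 32 protein-coding histone genes extends from H1-1 to H4C8. It holds 5 H1, 4 H2A, 8 H2B, 7 H3 and 8 H4 genes, and HFE, a regulator of iron uptake, is its only other protein-coding gene. Next come 84 other entries, among them 47 transfer RNA genes and all 6 butyrophilin genes, which encode membrane proteins of the immunoglobulin superfamily. The right run from H2BC11 to H2BC17 has 21 protein-coding histone genes in 2 groups. Between these groups lie 51 transfer RNA genes and 5 other coding genes, including the serine protease gene PRSS16 and the zinc finger genes ZNF391 and ZNF184. To the right, up to ZSCAN12, follow 13 other coding genes. OR2B2 and OR2B6 come first, and most of the others are zinc finger and SCAN domain genes, which encode DNA-binding proteins.

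The interval was divided accordingly into 4 subdomains: left histone (26.0 to 26.3 Mb), butyrophilin (26.3 to 27.1 Mb), right histone (27.1 to 27.9 Mb) and zinc finger (27.9 to 28.4 Mb). The right histone subdomain thus also covers the transfer RNA genes between its groups of histone genes. Regions could not be assigned to single genes, since no gene positions on hg19 were used.

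The promoters of these gene classes differ in sequence, and 4 of them are shown because 5-azacytidine acts on methylation at CpG sites. Each sequence below is the 250 bases before the RefSeq start on GRCh38.p14, read 5′ to 3′ on the gene's strand, with CpG sites in capitals. Each is the first gene in chromosomal order of its list with an entry: an H4 gene, an H2B gene, a butyrophilin gene and a zinc finger gene.
H4C2: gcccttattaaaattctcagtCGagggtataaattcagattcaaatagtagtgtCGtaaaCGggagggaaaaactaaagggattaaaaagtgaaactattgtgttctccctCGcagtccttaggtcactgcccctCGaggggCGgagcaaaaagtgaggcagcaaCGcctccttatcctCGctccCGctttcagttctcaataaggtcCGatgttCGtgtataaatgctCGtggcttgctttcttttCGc
H2BC3: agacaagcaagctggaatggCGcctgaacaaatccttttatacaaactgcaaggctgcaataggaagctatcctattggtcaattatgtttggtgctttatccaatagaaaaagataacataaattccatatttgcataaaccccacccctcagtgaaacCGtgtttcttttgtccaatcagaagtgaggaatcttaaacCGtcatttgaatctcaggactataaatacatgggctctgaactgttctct
BTN3A2: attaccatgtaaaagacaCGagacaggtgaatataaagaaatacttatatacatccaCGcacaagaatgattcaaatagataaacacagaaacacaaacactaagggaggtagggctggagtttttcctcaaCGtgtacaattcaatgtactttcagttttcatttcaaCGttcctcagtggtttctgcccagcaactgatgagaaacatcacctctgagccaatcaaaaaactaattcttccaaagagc
ZKSCAN8: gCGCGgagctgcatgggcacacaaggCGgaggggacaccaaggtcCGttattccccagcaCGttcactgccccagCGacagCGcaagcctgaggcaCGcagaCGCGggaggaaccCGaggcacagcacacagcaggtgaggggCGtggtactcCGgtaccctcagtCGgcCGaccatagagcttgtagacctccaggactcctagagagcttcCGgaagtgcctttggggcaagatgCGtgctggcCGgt
In promoter windows of 300 bases the median number of CpG sites was 10.5 over 52 windows of 48 histone genes, with a range of 3 to 25. It was 3 over 5 windows of 4 butyrophilin genes, and 14 over all 35116 windows. Over 16 windows of 9 genes of the zinc finger and SCAN list, which also includes NKAPL, it was 19. Motifs were searched on both strands, and windows of divergent neighbours can overlap. The octamer ATTTGCAT, bound by OCT1, lay in 12 of 16 H2B windows and 8 of 10 H2A windows, but in 1 of 10 H3, 0 of 6 H1 and 0 of 10 H4 windows. The share was 40.4% over all histone windows and 1.77% over all windows. CCAAT lay in 86.5% of histone windows and 34.6% of all windows, but among histone windows it was in all of the H1, H2A, H2B and H3 ones and in 3 of 10 H4 ones. The TATA box motif TATAAA lay in 65.4% of histone windows and 11.5% of all windows. These sequences were not placed relative to peaks.

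The interval was rich in accessible regions. It held 163 regions per Mb, against 127 per Mb in the rest of the genome, measured over the span from the first to the last peak of each chromosome. The subdomains were unequal, with 270 regions per Mb in left histone, 188 in right histone, 143 in butyrophilin and 92 in zinc finger. In the lists themselves the interval had 353 and 406 peaks in treated replicates 1 and 2, against 368 and 370 peaks in untreated replicates 1 and 2. The treated libraries lay on either side of the untreated ones, with means of 379.5 ± 37.5 and 369 ± 1.41 peaks (SD, n = 2 each; exact two-sided permutation test, p = 1). With 2 libraries against 2 the smallest p of this permutation test is 0.333, so no single value could pass a threshold of 0.05 by it.

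The treated lists were longer in all, with 259572 and 245142 peaks against 221110 and 223345 in the untreated lists, so density was also taken relative to the rest of the genome in the same library. In left histone this ratio was 3.67 and 4.09 in treated and 3.96 and 4.31 in untreated libraries. The groups overlapped. In right histone it was 1.86 and 2.29 in treated and 2.40 and 2.38 in untreated libraries, so that both treated values were lower. Butyrophilin had 1.21 and 1.65 in treated and 1.55 and 1.55 in untreated libraries, and zinc finger had 0.909 and 1.01 in treated and 1.12 and 0.898 in untreated libraries. Left histone was therefore the densest subdomain in 4 of 4 libraries and zinc finger the sparsest, close to the genome's level in listed peaks. These ratios count peaks, and a call with several summits lists several peaks. Such peaks made up 57.7% to 75.3% of the peaks of left histone, against 18.1% to 31.2% in the rest of the genome. Counted as merged regions, zinc finger had 92 per Mb, against 127 per Mb in the rest. Over the whole interval the ratio was 1.67 and 2.03 in treated and 2.04 and 2.04 in untreated libraries, a mean of 1.85 ± 0.258 against 2.04 ± 0.0067 (SD, n = 2 each; exact permutation test, p = 0.333). This difference rested on treated replicate 1: the log2 ratio of treated to untreated was −0.14 with it and −0.0037 without it. With all 4 libraries this log2 ratio was −0.016 when peaks needed a −log10 q of at least 5, and −0.054 with lists cut to equal length.

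**Figure D1:**
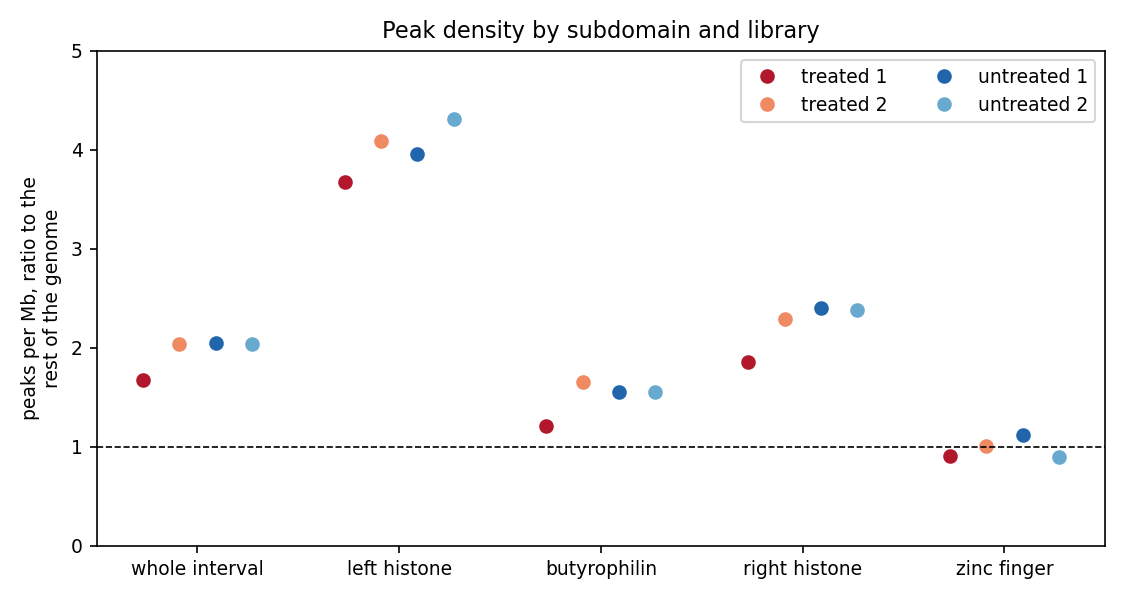
Peaks per Mb in the whole interval and its 4 subdomains as a ratio to the rest of the genome in the same library; each point is 1 library and the dashed line marks equal density. Left histone has 3.67 to 4.31 times the peak density of the rest of the genome, and zinc finger 0.898 to 1.12 times. A call with several summits counts as several peaks.

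Within subdomains the peaks were grouped. In bins of 100 kb, the last bin of left histone, from 26.2 to 26.3 Mb, held the most peaks in each library, 37 and 39 in treated and 34 and 42 in untreated libraries. The bin from 26.5 to 26.6 Mb set the treated libraries apart from each other, with 18 and 37 peaks, while the untreated libraries had 23 and 25. From 27.5 to 27.6 Mb both treated libraries had more peaks than both untreated ones, with 26 and 21 peaks in treated and 19 and 16 in untreated libraries. From 26.4 to 26.5 Mb the order was the reverse, with 9 and 8 peaks in treated and 15 and 12 in untreated libraries. These bins were picked after their values were seen. The longest stretch without a region in any list was 133173 bp, chr6:26758668-26891840 in the butyrophilin subdomain. The next was 67689 bp in zinc finger. In left histone no gap exceeded 12590 bp, and the median gap was 1463 bp, against 5008 bp in zinc finger.

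**Figure D2:**
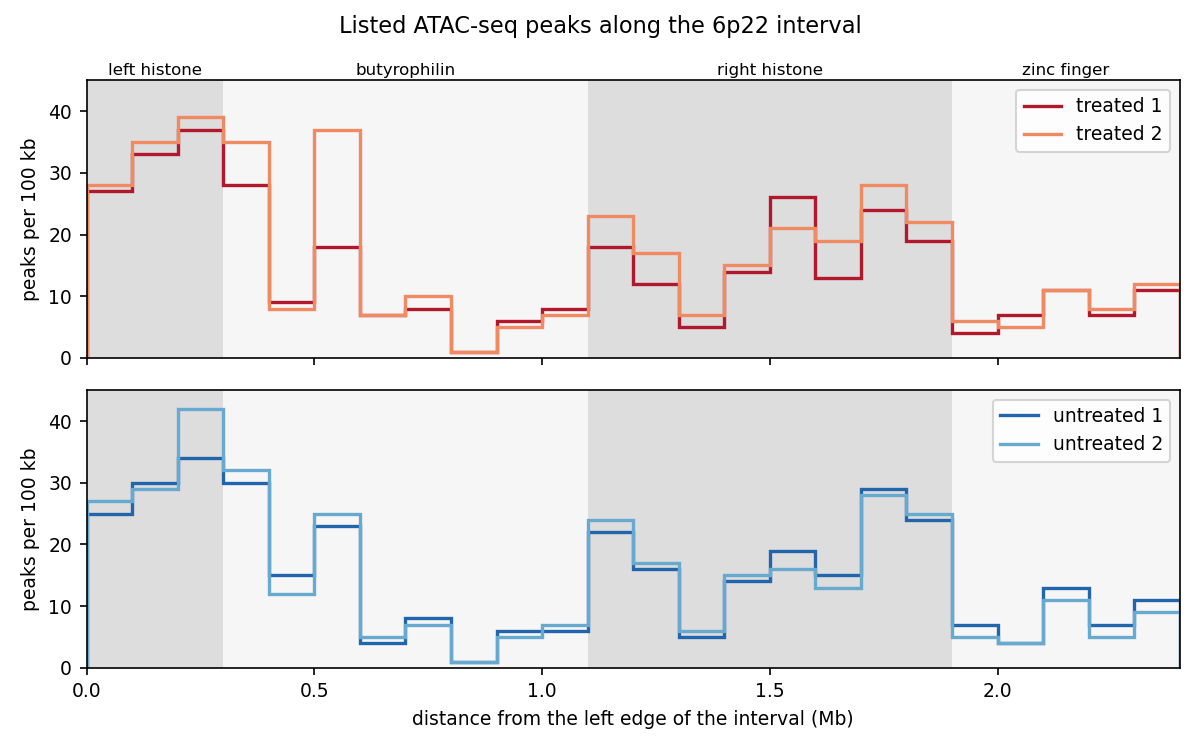
Number of listed peaks in bins of 100 kb along the interval, by distance from its left edge in Mb, for the 2 treated libraries (top) and the 2 untreated libraries (bottom); shading marks the 4 subdomains. The profile repeats in the 4 libraries, with 34 to 42 peaks in the last bin of left histone and 1 peak in the bin that starts at 0.8 Mb.

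Regions of the interval were more often shared by all libraries than elsewhere. A peak in all 4 lists was found at 196 of 391 regions (50.1%), against 28.2% of the regions in the rest of the genome, a difference of 21.9 percentage points (95% Newcombe interval 16.99 to 26.9). Against the rest of chromosome 6 the difference was 19.4 points (14.4 to 24.4). Each subdomain shared this, with 53.1% in left histone, 47.4% in butyrophilin, 50.7% in right histone and 23 of 46 regions in zinc finger, and the intervals of all differences between subdomains included 0. Regions in a single list made up 28.6%, against 45.9% in the rest. Single-list regions of treated replicate 1, the longest list, made up 7.16% of regions in the interval and 19.3% in the rest. These intervals reflect counting error alone, and regions do not stand for replicates.

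Shared regions were also broad. Nearly all deposited peaks are 500 bp wide. A merged region is wider where more summits lie close together, but also where the lists place their peaks at different positions. For example, chr6:27064098-27065427 in butyrophilin was 1330 bp wide with only 4 peaks over the 4 lists. The shares below do not separate these sources of width. In left histone 24 of 43 regions of all 4 lists were wider than 1000 bp (55.8%, 95% Wilson interval 41.1 to 69.6), against 27.2% in the rest of the genome (26.9 to 27.4). In right histone 30 of 76 were (39.5%, 29.2 to 50.7), in butyrophilin 18 of 54 (33.3%, 22.2 to 46.6) and in zinc finger 9 of 23 (39.1%, 22.2 to 59.2). Over 2000 bp were 9 regions in left histone, 5 in right histone, 1 in butyrophilin and 0 in zinc finger. The 3 widest all lay in left histone. At chr6:26157450-26160573, 3124 bp wide with 23 peaks over the 4 lists, the summit coverage was 31 and 37 in treated and 94 and 57 in untreated libraries. Both treated values were lower. At chr6:26269060-26271961 it was 11 and 27 in treated and 57 and 24 in untreated libraries, and the groups overlapped. At chr6:26197956-26200785 it was 19 and 39 in treated and 68 and 48 in untreated libraries. Regions of all 4 lists covered 18.4% of the bases of left histone, 9.88% of right histone, 6.05% of butyrophilin and 3.99% of zinc finger, against 3.05% in the rest of the genome.

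Summit coverage is the number of reads or fragments stacked at a peak's summit, recovered from the authors' fold enrichment. Its median over all regions of all 4 lists was 11 and 16 in treated replicates 1 and 2, against 23 and 18 in untreated replicates 1 and 2. It was therefore scaled by that median before groups were compared, and log2 fold changes below are of scaled coverage, treated over untreated. Regions of the interval stood above the genome's median in each library: the median log2 scaled coverage was 0.24 and 0.32 in treated and 0.38 and 0.47 in untreated libraries. Left histone had the highest medians, 0.63 and 0.64 in treated and 0.87 and 0.87 in untreated libraries. Right histone had the lowest, 0.13 and 0.087 in treated and 0.15 and 0.15 in untreated libraries. A region's coverage in a list is that of its highest peak there. The median width of these regions was 1081 bp in left histone, 812 to 885 bp in the other subdomains and 636 bp in the rest of the genome. The part of width in these medians was not tested. The excess over the rest of the genome was smaller in treated than in untreated libraries, at 0.28 ± 0.06 against 0.43 ± 0.06 on the log2 scale for the whole interval (SD, n = 2 each; exact permutation test, p = 0.333). For zinc finger it was 0.37 ± 0.03 against 0.67 ± 0.09 (exact permutation test, p = 0.333).

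Sites were ordered by their mean log2 scaled coverage over the 4 libraries. By p-value, the highest site of each subdomain ranked at the 94.9th percentile of its list or above in all 4 libraries. So did the other 2 leading sites of butyrophilin. In left histone the highest was chr6:26122550-26124767, where summit coverage was 27 and 49 in treated and 74 and 65 in untreated libraries. Butyrophilin had 3 leading sites of similar height. At chr6:26421355-26422269 coverage was 38 and 56 in treated and 94 and 66 in untreated libraries, and at chr6:26351624-26352160 it was 36 and 44 in treated and 100 and 61 in untreated libraries. After scaling, these and the highest site of left histone were lower in both treated libraries, although the fold change of the first turned to 0.021 with quantile normalization. At chr6:26474220-26475082 it was 43 and 52 in treated and 70 and 57 in untreated libraries, which after scaling put both treated libraries above both untreated ones, while without scaling the log2 fold change was −0.42. The highest site of right histone, chr6:27099210-27101136, spans the bound with butyrophilin at 27.1 Mb. It had 34 and 55 in treated and 125 and 62 in untreated libraries. The highest of zinc finger and, by mean scaled coverage, of the interval was chr6:28134717-28135261. It had 41 and 49 in treated and 114 and 74 in untreated libraries. Left histone also had chr6:26157450-26160573, given above, and chr6:26272985-26274387, given below, among its 3 highest. The remaining sites among the 3 highest of a subdomain were chr6:27218502-27219926 and chr6:27114275-27115225 in right histone and chr6:27969387-27970426 in zinc finger, all lower in both treated libraries after scaling, and chr6:28109322-28109844 in zinc finger. The last had 22 and 39 in treated and 35 and 48 in untreated libraries, and its groups overlapped. None of these 12 sites passed the test described next (limma adjusted p 0.074 to 0.84).

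Few regions of the interval were called as changed in coverage. A limma model was fitted to all 105414 regions of all 4 lists, with Benjamini-Hochberg adjustment over all of them and a threshold of 0.05. Its error for a region came mostly from a trend over regions of similar coverage. Its p-values and SEs thus reflect little of the spread between replicates at the region itself. The model called 2 of the 196 regions of the interval higher and 2 lower in treated libraries. Over all regions tested it called 2.33% higher and 2.12% lower, 4.45% in all, and the 4 calls here are 2.04% of the interval's regions. At an unadjusted p under 0.05 there were 25 regions (12.8%), against 20% of all regions tested. The 4 calls depend on the scaling: with quantile normalization and with no scaling, limma called 0 regions of the interval in either direction, where 15 (7.65%) and 53 (27.0%) had an unadjusted p under 0.05, against 14.4% and 19.5% of all regions.

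Coverage rose at chr6:26758117-26758667 in the butyrophilin subdomain. It was 29 and 32 in treated and 20 and 20 in untreated libraries, or 2.64 and 2.00 times the library median in treated and 0.870 and 1.11 times in untreated libraries. Both treated libraries were thus higher before and after scaling (log2 fold change 1.22 ± 0.32 SE; limma adjusted p = 0.013). The call was lost without treated replicate 1, untreated replicate 1 or untreated replicate 2, at limma adjusted p-values of 0.16, 0.20 and 0.054. This site borders the longest stretch without regions. To its left lay chr6:26751789-26752328 and chr6:26756434-26756952, listed in both treated libraries only, and chr6:26755491-26756031, listed in both untreated libraries only with a coverage of 6 and 4. Coverage also rose at chr6:27520746-27521570 in right histone, with 10 and 20 in treated and 6 and 10 in untreated libraries (log2 fold change 1.49 ± 0.45 SE; limma adjusted p = 0.035). Before scaling the groups met at 10, and after it they were apart. Without treated replicate 1, treated replicate 2 or untreated replicate 1 this call was lost, at limma adjusted p-values of 0.071, 0.19 and 0.45. This site lay among 3 regions listed in both treated libraries only, chr6:27509161-27509802, chr6:27513214-27513967 and chr6:27529318-27529853. The closeness of these sites was noticed, and the neighbours outside the naming rule picked, after the values were seen, and it was not tested. The next in order by p were chr6:26701529-26702502 (9 and 14 in treated, 8 and 7 in untreated; limma adjusted p = 0.11), chr6:26119086-26119648 (16 and 22 against 16 and 14; 0.14) and chr6:27182354-27183215 (6 and 11 against 6 and 7; 0.24), which did not pass.

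Coverage fell at chr6:26659755-26660745 in the butyrophilin subdomain, with 18 and 21 in treated and 66 and 49 in untreated libraries (log2 fold change −0.93 ± 0.28 SE; limma adjusted p = 0.035). It also fell at chr6:26296050-26296975, at the right end of left histone, with 18 and 27 in treated and 65 and 57 in untreated libraries (−0.85 ± 0.27 SE; limma adjusted p = 0.046). At both sites all treated values were below all untreated values. The call at chr6:26659755-26660745 was lost without treated replicate 2, untreated replicate 1 or untreated replicate 2, at limma adjusted p-values of 0.098, 0.31 and 0.21. The call at chr6:26296050-26296975 was lost without treated replicate 1, untreated replicate 1 or untreated replicate 2, at 0.096, 0.24 and 0.34. Close to it, chr6:26272985-26274387 had 25 and 31 in treated and 71 and 69 in untreated libraries (limma adjusted p = 0.074), and chr6:26284633-26287065 had 16 and 14 in treated and 47 and 35 in untreated libraries (limma adjusted p = 0.12). In zinc finger, chr6:28237128-28237774 had 7 and 9 in treated and 28 and 24 in untreated libraries, with a log2 fold change of −1.09 and a limma adjusted p of 0.099. These 3 did not pass.

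**Figure D3:**
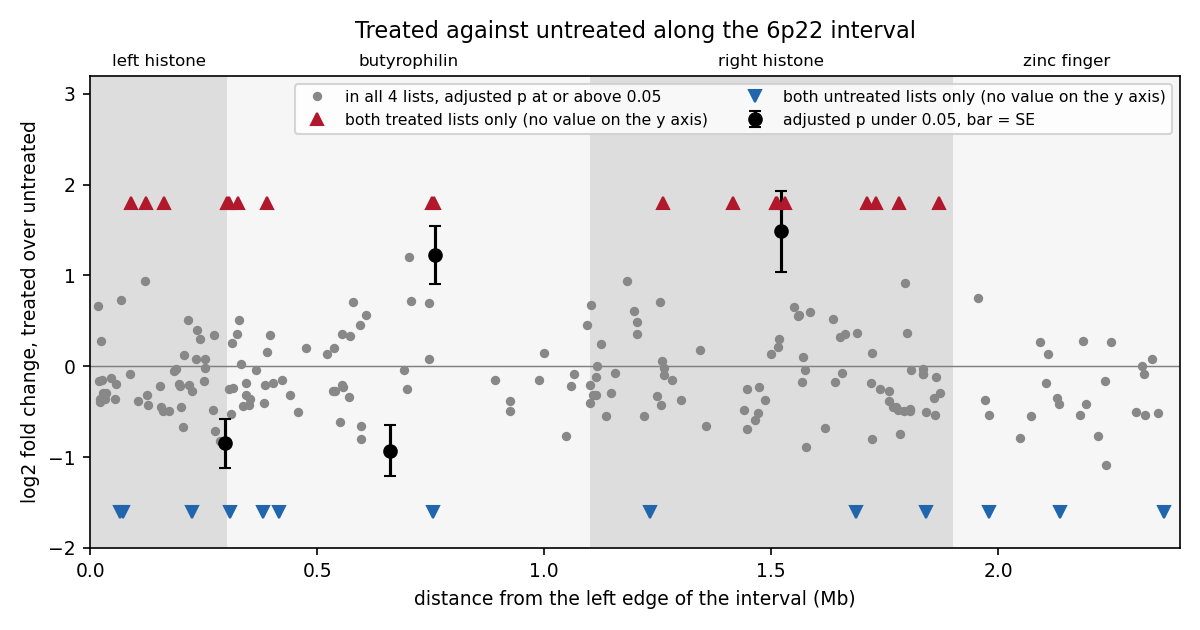
Log2 fold change of scaled summit coverage for the 196 regions of all 4 lists, by distance from the left edge of the interval in Mb; black points with SE bars are the 4 regions called by limma, and triangles mark the positions of 18 regions listed only in both treated libraries and 13 listed only in both untreated libraries, with no value on the vertical axis. The 2 higher calls, at 1.22 and 1.49, lie near triangles of gained regions, and the one at 1.22 also near a lost region. This closeness was noticed after the values were seen and was not tested.

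The regions of the interval leaned to lower scaled coverage in treated libraries. The median log2 fold change was −0.19 over its 196 regions and 0.059 over all regions of all 4 lists, and 66.8% of regions against 45.9% were below 0. Both treated libraries lay below both untreated ones at 76 regions (38.8%, against 22.2% of all regions) and above them at 31 (15.8%, against 27.2%). The lean was shared by the subdomains, with medians of −0.20 in left histone, −0.17 in butyrophilin, −0.16 in right histone and −0.37 in zinc finger. In zinc finger 13 of 23 regions were lower in both treated libraries and 1 was higher. The median log2 fold change of zinc finger minus that of the other subdomains was −0.19, but −0.017 without treated replicate 2. The treatment effect was also compared between subdomains by the exact permutation test, which cannot go below 0.333 here: relative to the other subdomains, the median log2 scaled coverage of zinc finger was 0.089 ± 0.026 in treated and 0.27 ± 0.0058 in untreated libraries (SD, n = 2 each; exact permutation test, p = 0.333), and that of butyrophilin was 0.089 ± 0.13 in treated and 0.036 ± 0.051 in untreated libraries (exact permutation test, p = 1).

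The fold change also moved with the unscaled mean coverage of a site, inside and outside the interval. Outside the interval the median fold change was 0.51 for regions with a mean coverage under 10 over the 4 libraries and −0.21 for those of at least 40. Only regions listed in all 4 libraries enter here, and the lowest coverage listed is 4 in each. The library medians were 11 and 16 in treated and 23 and 18 in untreated libraries. After scaling this floor is therefore higher in treated libraries, and its part in the trend was not tested. The interval had higher sites than the rest, with a median mean coverage of 22.4 against 17.3. Bands were set by the unscaled mean of the same 4 coverages that give the fold change, and so are not independent of it. The median fold change of the interval was lower than that of the rest in 4 of 5 bands. The medians were −0.022 against 0.11 from 10 to 20 (64 regions in the interval), −0.23 against −0.079 from 20 to 30 (62 regions), −0.28 against −0.15 from 30 to 40 (24 regions) and −0.39 against −0.21 at 40 or more (29 regions). Under 10 the medians were 0.55 and 0.51 (17 regions in the interval). The part of library depth or quality in this lean was not tested.

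**Figure D4:**
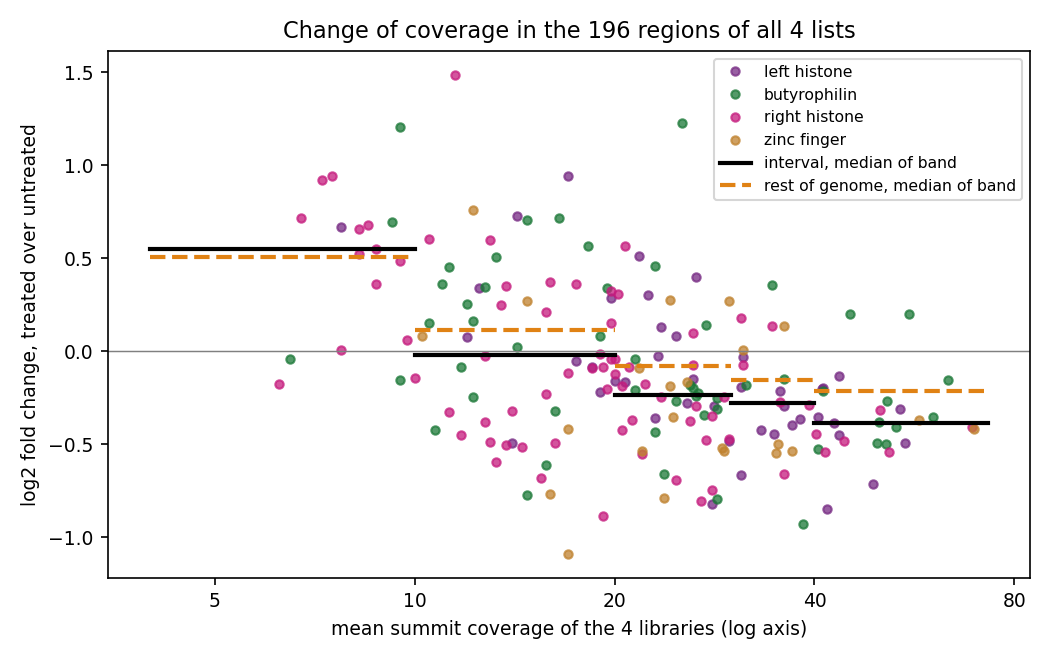
Log2 fold change of scaled coverage, treated over untreated, against the mean summit coverage of the 4 libraries on a log axis, for the 196 regions of all 4 lists coloured by subdomain; lines are medians of bands of coverage in the interval (solid) and in the rest of the genome (dashed). From a coverage of 10 upward the solid line lies below the dashed one, at −0.39 against −0.21 in the highest band.

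Gained and lost regions took shares of the interval close to their shares of the whole genome. Gained regions are those listed in treated replicates 1 and 2 but not in the untreated ones, and lost regions the converse. The interval held 18 gained regions (4.60%, 95% Wilson interval 2.93 to 7.16), where 4.21% of all regions were gained, and 13 lost regions (3.32%, 1.95 to 5.60), where 3.35% of all were lost. The difference from the rest of the genome was 0.40 percentage points for gained (95% Newcombe interval −1.28 to 2.95) and −0.03 points for lost regions (−1.40 to 2.25). Regions listed in 1 treated and 1 untreated library only, of which there are 4 classes, numbered 2 to 7 in each class. Gained regions numbered 3 in left histone, 6 in butyrophilin, 9 in right histone and 0 in zinc finger. Lost regions numbered 3, 4, 3 and 3 in the same order. The intervals for all differences between subdomains included 0. The number gained depended on the threshold: it was 3 when peaks needed a −log10 q of at least 5 and 10 when the lists were cut to equal length, where 14 and 15 were lost.

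These were low peaks. The median summit coverage of gained regions was 6 and 7 in treated replicates 1 and 2, and that of lost regions 6 and 7 in untreated replicates 1 and 2, where the lowest coverage listed is 4. Among gained regions 0, and among lost regions 2, reached a coverage of 10 in each of their lists. The leading gained region, chr6:26304877-26305404 at the left end of butyrophilin, had a coverage of 9 in each treated library and no listed peak in the untreated ones. It was followed by chr6:26756434-26756952 with 7 and 8, chr6:26751789-26752328 with 6 and 12, chr6:27513214-27513967 with 6 and 10, and chr6:27262027-27262735 with 6 and 7 in the treated libraries. The leading lost region, chr6:27839778-27840396 near the right end of right histone, had a coverage of 20 and 12 in the untreated libraries and no listed peak in the treated ones. It was followed by chr6:27231592-27232101 with 10 and 15, chr6:26071236-26071747 with 9 and 10, chr6:26380350-26380902 with 8 and 7, and chr6:26415975-26416522 with 7 in each untreated library. Peaks are numbered in each list, and some numbers are missing. For 2 gained and 3 lost regions, chr6:27231592-27232101 among them, a number is missing from a list between the nearest peaks on either side of the region. The missing peak may or may not lie at the region, so the region's absence from that list is uncertain. No test was run for single regions of these classes, since presence or absence in 2 libraries against 2 cannot reach 0.05 in an exact test.

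**Figure D5:**
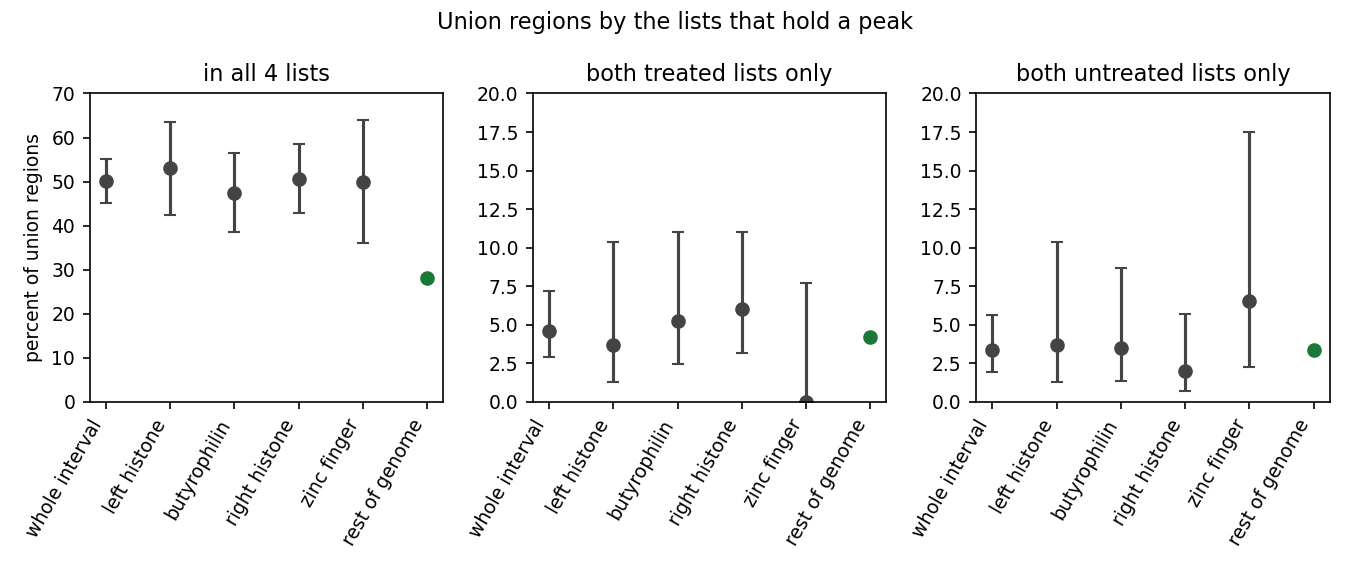
Percent of union regions with a peak in all 4 lists (left), in both treated lists only (centre) and in both untreated lists only (right), for the whole interval, its 4 subdomains and the rest of the genome; bars are 95% Wilson intervals for counting error. The share in all 4 lists is 47.4% to 53.1% in the subdomains and 28.2% in the rest, while the gained and lost shares of the interval, 4.60% and 3.32%, have intervals that include those of the rest.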

How the data were processed

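Tools named in the submitters' processing notes are Bowtie2, Trimmomatic, MACS2 and Picard, with the hg19 build and no versions or settings. A shift of read ends to the transposase cut site is not given in the sources used here. Each library has 1 narrowPeak list with its own peak names, and nearly all intervals are 500 bp wide. The authors scaled the deposited score, so that each list sums to 1000000. The deposited fold enrichment and −log10 p and q values are those of the peak caller, 1 per peak. The deposited summit offsets were not used. Fold values were multiples of 1 step in each list (tolerance 0.02 of a step), and from them came the summit coverage and the background coverage, 0.898 and 0.875 in treated and 0.913 and 0.898 in untreated libraries. The number of reads is unknown.

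Peaks on chromosomes 1 to 22 and X sharing at least 1 bp were merged, and the highest peak of a list gave a region's coverage. Log2 coverage of regions in all 4 lists, scaled by the library median, was fitted with limma 3.58.1 (trend, R 4.3.3). Regions missing from any list were not in this fit. The code was also run on simulated counts whose dispersion was set and not estimated from these libraries. That run cannot show the error rate in these data. Other values were tested by exact two-sided permutation over 6 assignments of the libraries. Python 3.11.15 was used with pandas 2.3.3, numpy 2.4.6, matplotlib 3.10.9 and scipy 1.17.1.

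The interval, its subdomains and the gene lists were chosen with earlier results of these data known. The naming rule took the 3 highest regions of each subdomain, the 5 highest and 5 lowest fold changes among called regions or else by p-value, the 5 best-ranked gained and the 5 best-ranked lost regions by p-value, and the 3 widest. Cyclic loess scaling was added after seeing the data. Gene lists were not joined to regions, since the gene table is on another build.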

Additional observations from a re-analysis of the deposited data

How the results depend on the processing

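Log2 ratios and log2 fold changes are treated over untreated. The log2 ratio of peak numbers in the interval, 0.040, was −0.23 when −log10 q had to reach 5, −0.054 with lists of equal length, and −0.064 to 0.14 when each library was left out. Density relative to the rest of the genome kept its sign in the whole interval. Its log2 ratio, −0.14, came to −0.016 at the stricter q, −0.054 with lists of equal length and −0.29 to −0.0037 with a library left out. At the stricter q and with lists of equal length, left histone (−0.091) came to 0.16 and 0.015 and zinc finger (−0.073) to 0.16 and 0.019. Butyrophilin (−0.12) came to 0.0017 at the stricter q. With a library left out, butyrophilin ranged from −0.36 to 0.093 and zinc finger from −0.22 to 0.096. The 18 gained regions became 3 at the stricter q, 10 with lists of equal length and 22 to 52 with a library left out, and the 13 lost regions 18 to 41; with a library left out, fewer lists define a class.

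Of the 2 regions called higher and 2 called lower, 0 and 0 were called with quantile normalization and with no scaling, where 0 regions were also called over the whole genome. The calls were 1 and 1 at a mean coverage of at least 10, 1 and 2 at the stricter q, 2 and 1 with the deposited score, 1 and 0 with cyclic loess scaling, and 0 to 2 and 0 to 3 with a library left out. The cause was not tested. Without scaling the median log2 fold change of all regions was −0.56 and that of the interval −0.81. The interval's median stayed below that of the rest under each alternative run, by −0.33 to −0.14 (−0.25 as reported). The differences of left and right histone from the other subdomains, −0.024 and 0.040, changed sign with quantile normalization (0.0029 and −0.0080), a mean coverage of at least 10 (0.015 and −0.039) and cyclic loess scaling (0.015 and −0.0082), and ranged from −0.10 to 0.095 and −0.026 to 0.12 with a library left out. The difference of zinc finger from the other subdomains, −0.19, kept its sign in each run. It was −0.081 with quantile normalization, −0.10 with cyclic loess scaling and −0.28 to −0.017 with a library left out. Of the named regions, the log2 fold change of chr6:26421355-26422269 was 0.021 with quantile normalization and 0.034 with cyclic loess scaling. That of chr6:26474220-26475082 was −0.42 without scaling. That of chr6:28109322-28109844 was −0.48 without scaling and −0.27 to 0.54 with a library left out.

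The labels do not pair the replicates, and their deviations correlated at −0.052 over 105414 regions. With the replicate number as a replicate block, 2 regions were called higher and 1 lower, and the log2 ratio of density was −0.15. Low coverage, 11 to 23 at the median shared site, and 2 libraries a group limit what could be called.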
